A study of Arabidopsis thaliana with 2 samples.

Results

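The 10 genes described here make, transport and switch on flavonoids and proanthocyanidins in Arabidopsis thaliana. They were chosen by locus for their known roles, with earlier results of these data known, and no value entered the rule: TT4 (AT5G13930), TT5 (AT3G55120), TT6 (AT3G51240), TT3 (AT5G42800), LDOX (AT4G22880), BAN (AT1G61720), TT12 (AT3G59030), AHA10 (AT1G17260), TT2 (AT5G35550) and TT8 (AT4G09820). All 10 had values, of 33557 genes with values in the table. RNA was sequenced from mature ovules of 2 genotypes, with 1 library each. The library called wild-type came from unpollinated ovules of ms1, a male-sterile line, used in place of true wild-type plants. The other library came from myb98 ovules. MYB98 encodes a MYB protein that regulates genes in synergids, the cells beside the egg. The labels' treatment protocol describes emasculation at floral stage 12 and collection by hand, 36 hours later, of the ovules of about 50 pistils. The sources used here name neither the accession of either line nor the hour of collection. The comparison is thus of myb98 with ms1, and what belongs to MYB98, to ms1, to the line or to the library cannot be told apart.

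Proanthocyanidins, or condensed tannins, are the pigments that turn the Arabidopsis seed coat brown, and mutants that lack them have a transparent testa (TT). They accumulate after fertilization in the endothelium, the innermost layer of the inner integument of the ovule. The early enzymes TT4, TT5 and TT6 serve flavonols, anthocyanins and proanthocyanidins alike, and MYB11, MYB12 and MYB111 activate their genes. The late genes are switched on by a complex of a MYB, a bHLH and the WD40 protein TTG1, in which TT2 is the MYB and TT8 the bHLH of the seed coat.

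All 10 genes were transcribed in these unfertilized ovules. Their levels are in FPKM, a fragment count divided by transcript length and by library size, and ran from 2.26 to 39.8 in wild-type ovules and from 3.12 to 39.9 in myb98 ovules. BAN was the highest and TT2 the lowest in both. The early enzyme genes were all at a higher level in the myb98 library, while every late enzyme and transport gene but BAN was at a lower one, by 1.36-fold or less. Differences are given on a log2 scale as the ratio of myb98 to wild-type after a pseudocount of 1 was added to both FPKM, and a gene was said to pass the 2-fold rule when this was 1 or more in size. Of the 10 genes, 1, TT4, passed the rule, with a higher level in the myb98 library. Over all 16303 expressed genes, those that reached 1 FPKM in one library or both, 5.69% passed it in either direction and 2.95% in this one. None of the 10 passed at 4-fold, where the share over all genes was 0.994%. With 1 library per genotype there is no replicate error, and these rules of size are not tests.

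**Figure D1:**
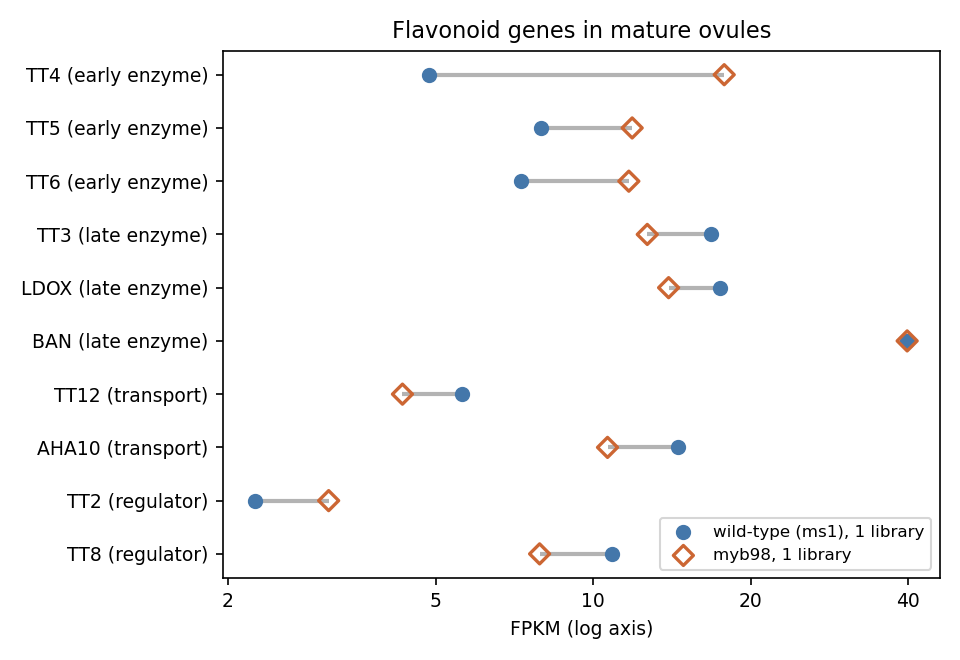
FPKM (log axis) of each of the 10 genes in the wild-type (ms1) library (filled circles) and the myb98 library (open diamonds), ordered by role, with 1 library per genotype and no error bars. The lines between the points are longest for TT4, at 4.85 and 17.8 FPKM, and BAN shows both points at one place, at 39.8 and 39.9 FPKM.

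The promoters are shown because several of the 10 genes hold the G-box, CACGTG, a site known to be bound by bHLH and bZIP factors, among them the light regulator HY5. The window searched ran from 250 bases before to 50 bases after the annotated start in RefSeq's TAIR10.1. The G-box lay in 5 of the 10 windows and in 7.68% of the windows of 27437 protein-coding genes. The 6 sites follow, with 12 bases on either side, and capitals mark the G-box, which reads the same on both strands.
TT4, chr5:4488231-4488260, plus strand: gagttaagtatgCACGTGtaagaactggga
TT5, chr3:20431541-20431570, minus strand: aaaacgaaagtaCACGTGcttacacatcca
TT6, chr3:19024931-19024960, plus strand: acatgtctccgcCACGTGatttctccacag
TT3, first site, chr5:17166029-17166058, minus strand: accaacgttcccCACGTGcttctccggttg
TT3, second site, chr5:17166006-17166035, minus strand: ccggttggtactCACGTGaccggcagcttc
BAN, chr1:22792894-22792923, minus strand: tatttcaaagatCACGTGcttaccttctaa
The site began 233 bases before the start in TT4, 249 in TT6, 108 in BAN and 14 in TT3, whose second site lay 9 bases after the start base. In TT5 it lay 39 bases after the start base, in the transcribed part. Of the 5 genes with a G-box, TT4, TT5 and TT6 were at a higher level in the myb98 library, BAN at the same level and TT3 at a lower one.

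The wider E-box CANNTG, which includes every G-box, lay in 8 of the 10 windows and in 61.7% of all. The sequence GTAACNT, to which MYB98 is known to bind, lay in 0 of the 10 and in 12.9% of all, counted on both strands. The MYB recognition element ACCTACC lay in 0 of the 10 and in 1.38% of all, likewise on both strands. The sequence AAATATCT, a shortened form of the evening element AAAATATCT, a site of clock regulators, was also searched. It lay in 1 of the 10, TT4, and in 5.65% of all windows on either strand. In TT4 it began 84 bases before the start. It also lay, 154 bases before the start, in the window of FLS1 (AT5G08640), flavonol synthase, which is described with the other pathway genes. The base before the match is t in TT4 and a in FLS1, so of these genes FLS1 alone holds the full evening element. A match of letters is no evidence of binding, and these motifs were chosen with the expression values known. The 250 bases before the start of TT4, FLS1 and BAN are printed to show the genes with a higher level past 2-fold, and BAN, the member whose levels differed least. Capitals mark the G-box and AAATATCT.
TT4, chr5:4488226-4488475, plus strand: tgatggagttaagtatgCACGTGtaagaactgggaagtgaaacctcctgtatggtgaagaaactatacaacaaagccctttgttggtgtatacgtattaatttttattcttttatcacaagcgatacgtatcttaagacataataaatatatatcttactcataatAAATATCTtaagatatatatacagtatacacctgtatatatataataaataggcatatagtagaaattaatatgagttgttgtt
FLS1, chr5:2803583-2803832, plus strand: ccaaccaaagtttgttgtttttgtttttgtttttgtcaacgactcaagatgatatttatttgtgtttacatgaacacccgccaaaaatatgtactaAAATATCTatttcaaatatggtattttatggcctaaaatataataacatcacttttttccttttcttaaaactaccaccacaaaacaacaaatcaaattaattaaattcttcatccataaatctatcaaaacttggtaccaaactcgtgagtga
BAN, chr1:22792804-22793053, minus strand: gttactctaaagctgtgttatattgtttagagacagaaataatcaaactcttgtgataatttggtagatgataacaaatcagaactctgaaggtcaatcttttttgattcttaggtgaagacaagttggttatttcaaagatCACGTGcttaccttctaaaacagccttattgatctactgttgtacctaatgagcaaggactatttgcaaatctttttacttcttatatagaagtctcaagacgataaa

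Among the early enzymes, TT4 encodes chalcone synthase, which makes the first flavonoid of the pathway. The gene (chromosome 5, 4488476 to 4490264, plus strand, 2 exons) had 4.85 FPKM in wild-type and 17.8 FPKM in myb98 ovules, 3.67-fold higher (log2 1.68). By an estimate of depth from the lowest values, these levels stand for about 403 and 1311 fragments, and the 95% counting interval of the fold was 3.28 to 4.11. Such intervals cover counting error alone, since fragments without molecular identifiers are not independent molecules and nothing here measures the spread between ovule collections. Among the expressed genes, TT4 stood at percentile 38.7 of the wild-type and 82.5 of the myb98 library.

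TT5 (chromosome 3, 20430059 to 20431597, minus strand, 4 exons) encodes chalcone isomerase, which closes the ring of the chalcone. Its level was 7.95 FPKM in the wild-type and 11.9 FPKM in the myb98 library, 1.49-fold higher (log2 0.52, counting interval of the fold 1.32 to 1.70). TT6 (chromosome 3, 19025192 to 19026872, plus strand, 3 exons) encodes flavanone 3-hydroxylase, the next step. It had 7.26 and 11.7 FPKM, 1.61-fold higher in the myb98 library (log2 0.62, counting interval 1.44 to 1.80). Neither passed the 2-fold rule, and TT4 differed by more than either. An annotated gene on the other strand, AT3G51238, shares 1415 nt of exon with TT6, whose longest transcript has 1508 nt. AT3G51238 was listed at 0.0115 and 0.0689 FPKM, but reads of the shared bases cannot be assigned since strandedness is not given. The 3 early genes summed to 20.1 FPKM in the wild-type and 41.4 FPKM in the myb98 library.

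Among the late enzymes, TT3 encodes dihydroflavonol reductase, whose step leads away from flavonols. TT3 (chromosome 5, 17164093 to 17166032, minus strand, 6 exons) had 16.8 FPKM in the wild-type and 12.7 FPKM in the myb98 library, 1.33-fold lower (log2 -0.38, counting interval 1.21 to 1.45). LDOX, leucoanthocyanidin dioxygenase, makes anthocyanidins from the product of TT3. LDOX (chromosome 4, 12004726 to 12006209, minus strand, 2 exons) had 17.5 and 13.9 FPKM, 1.26-fold lower in the myb98 library (log2 -0.31, counting interval 1.15 to 1.37). The ratio of LDOX to TT3 within a library was 1.04 in the wild-type and 1.10 in the myb98 library. The pair thus kept nearly equal levels in both.

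BAN encodes anthocyanidin reductase, which turns anthocyanidins into the flavan-3-ol units of proanthocyanidins. BAN (chromosome 1, 22790966 to 22792803, minus strand, 6 exons) stood at 39.8 FPKM in the wild-type and 39.9 FPKM in the myb98 library. Its fold of 1.001 had a counting interval of 0.948 to 1.06, at about 2774 and 2464 fragments. It was the highest of the 10 genes, at percentile 94.0 of the expressed genes of the wild-type and 93.3 of the myb98 library. Within a library, which no scaling between libraries can alter, BAN was at 8.20 times the level of TT4 in the wild-type and 2.24 times in the myb98 library. The ratio of BAN to TT3 was 2.37 and 3.14, so BAN was the more abundant by a wider margin over TT3 in the myb98 library.

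The transport genes act at the vacuole, where proanthocyanidins are stored. TT12 encodes a carrier of the MATE family that moves flavan-3-ol glucosides into the vacuole, and AHA10 encodes a proton pump that is needed for this. TT12 (chromosome 3, 21819040 to 21821440, plus strand, 8 exons) had 5.62 FPKM in the wild-type and 4.32 FPKM in the myb98 library, 1.30-fold lower (log2 -0.32, or -0.19 with a pseudocount of 5, counting interval 1.13 to 1.50). Its exons share 92 nt with AT3G59040 on the other strand, which was at 5.68 and 2.33 FPKM, and reads of the shared bases cannot be assigned since strandedness is not given. AHA10 (chromosome 1, 5904058 to 5908898, plus strand, 21 exons) had 14.5 and 10.7 FPKM, 1.36-fold lower in the myb98 library (log2 -0.41, counting interval 1.27 to 1.46), and its log2 ratio was -0.26 when set against genes of like transcript length. The late enzyme and transport genes together summed to 94.3 FPKM in the wild-type and 81.5 FPKM in the myb98 library, of which BAN made the largest part.

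The regulators TT2 and TT8 were transcribed at unequal levels. TT2, an R2R3-MYB factor on chromosome 5 (13726743 to 13727961, plus strand, 2 exons), had 2.26 FPKM in the wild-type and 3.12 FPKM in the myb98 library, 1.38-fold higher (log2 0.34). With about 126 and 155 fragments it was the least precise of the 10, and its counting interval ran from 1.09 to 1.77. TT8, a bHLH factor on chromosome 4 (6181881 to 6186523, plus strand, 7 exons), had 10.9 and 7.90 FPKM, 1.38-fold lower in the myb98 library (log2 -0.42, counting interval 1.25 to 1.52). The ratio of TT8 to TT2 within a library was 4.82 in the wild-type and 2.53 in the myb98 library. The MYB of the pair was thus the scarcer transcript in each.

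**Figure D2:**
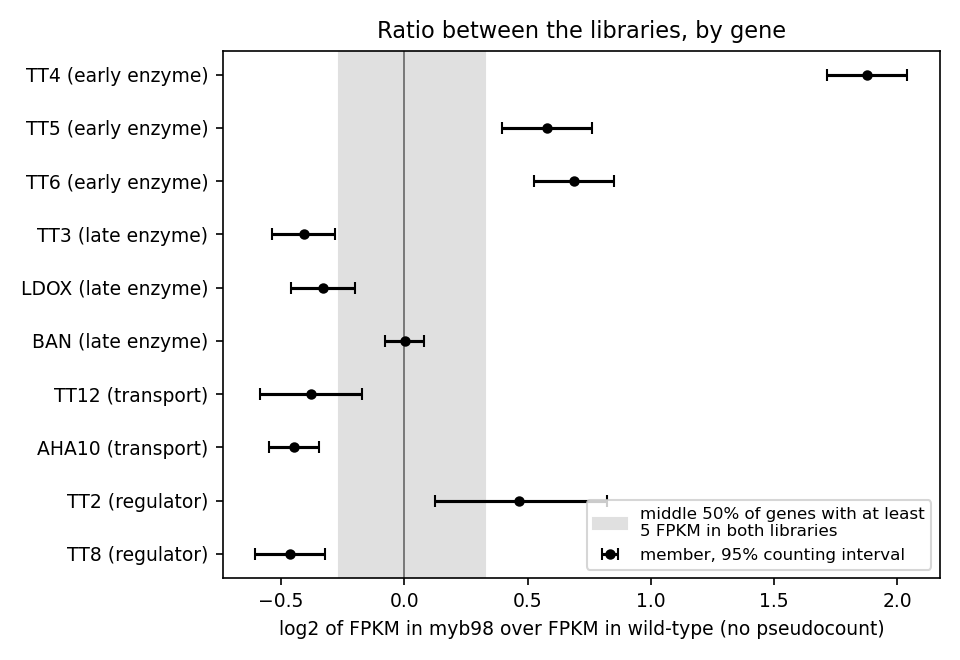
Log2 of the ratio of FPKM in the myb98 library to FPKM in the wild-type (ms1) library, without a pseudocount, for each of the 10 genes (points), with 95% counting intervals that cover counting error alone. The grey band is the middle of the distribution (interquartile range, -0.26 to 0.33) over the 8732 genes that reached 5 FPKM in each library. TT4, TT5 and TT6 lie to the right of the band with their whole intervals, and TT3, AHA10 and TT8 lie to its left with theirs.

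The 10 ratios were set beside those of other genes. On the scale with the pseudocount, the log2 ratio of the 8732 genes that reached 5 FPKM in each library had an SD of 0.47 across genes and an interquartile range from -0.24 to 0.30. TT4, TT5, TT6 and TT2 lay above that range (TT2 at 0.17, within it, when set against genes of like transcript length), TT3, LDOX, TT12, AHA10 and TT8 below it, and BAN in its middle. An interquartile range by construction leaves out as many of its genes as it holds, and TT4, TT12 and TT2 are not among the 8732. The median of the 10 was -0.15 (range -0.42 to 1.68), beside -0.0039 over the 16303 expressed genes. It was -0.31 with a filter of 5 FPKM, which left out TT2, and -0.09 with a pseudocount of 5. By sign, 4 of the 10 were higher and 5 lower in the myb98 library, and BAN, at 0.0020, turned sign in 2 of 7 alternatives. A pseudocount or a filter cannot turn a sign, so only the scalings and the length setting could. By role, the early enzymes had a median of 0.62 and a range from 0.52 to 1.68, and the late enzyme and transport genes a median of -0.32 and a range from -0.41 to 0.0020. The ranges of these groups of 3 and 5 genes did not overlap. Pathway genes outside the 10, such as TT7 at 0.12 and TT19 at 0.28, lay between these ranges. The gap thus holds for the members alone. The grouping follows textbook roles but was made with the values known, so it is given as a description.

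**Figure D3:**
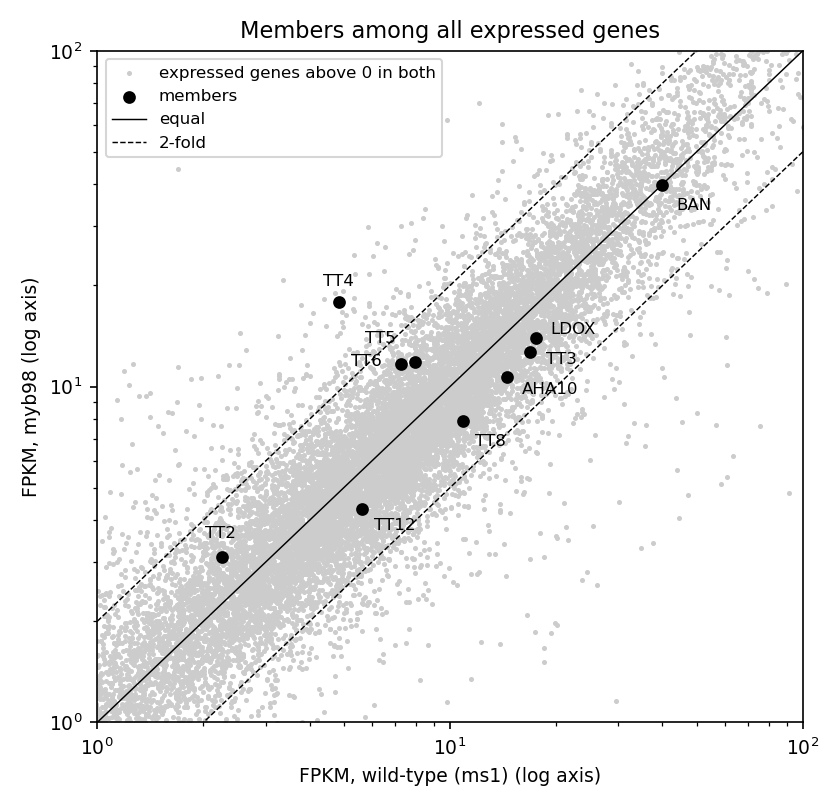
FPKM in the myb98 library against FPKM in the wild-type (ms1) library (both axes log, drawn from 1 to 100 FPKM) for the 10 genes (black, named) and for the other expressed genes above 0 in both libraries (grey). The solid line marks equal levels and the dashed lines a plain 2-fold ratio, and TT4 is the only named gene outside the dashed lines.

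The order of the 10 levels, which FPKM allows because it is per kilobase, changed mostly through TT4. In the wild-type library the order from the top was BAN, LDOX, TT3, AHA10, TT8, TT5, TT6, TT12, TT4 and TT2. In the myb98 library it was BAN, TT4, LDOX, TT3, TT5, TT6, AHA10, TT8, TT12 and TT2. TT4 was thus in place 9 in one and in place 2 in the other. Neighbours such as LDOX and TT3, or TT5 and TT6, kept their order in both, but with no replicates it is unknown whether they differ beyond the spread between ovule collections. A likeness of pattern between genes was not computed, since 2 libraries give no pattern to compare.

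Of the other genes of flavonoid metabolism and its control, 55 were listed, 35 reached 1 FPKM in either library, and 3 passed the 2-fold rule, 1 with a higher and 2 with a lower level in the myb98 library. Their median log2 ratio was 0.04. The gene with the higher level was FLS1, flavonol synthase, which draws on the products of the early enzymes to make flavonols. It had 1.58 FPKM in the wild-type and 8.41 FPKM in the myb98 library, 5.32-fold higher (log2 1.87, or 1.03 with a pseudocount of 5, counting interval of the fold 4.34 to 6.54). FLS1 and TT4 were thus the only genes of either set with a higher level past 2-fold, at 1 of 35 and 1 of 10 against 2.95% of all expressed genes.

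The 2 with a lower level were LBD37 and LBD39, nitrogen-responsive factors known to repress anthocyanin genes in seedlings. LBD37 (AT5G67420) had 8.09 and 2.32 FPKM, 3.48-fold lower in the myb98 library (log2 -1.45). LBD39 (AT4G37540) had 7.50 and 1.73 FPKM, 4.34-fold lower (log2 -1.64). With a pseudocount of 5 in place of 1, neither passed the rule (log2 -0.84 and -0.89). Their relative LBD38 (AT3G49940), named after its values were seen, had 1.32 and 1.12 FPKM. The 2 stood against 2.74% of all expressed genes with a lower level past 2-fold.

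Before chalcone synthase, 6 of 9 genes of phenylpropanoid entry were expressed and 0 passed (median 0.19). C4H, cinnamate 4-hydroxylase, had 27.3 and 31.3 FPKM, and PAL2, a phenylalanine ammonia-lyase, had 5.11 and 6.09 FPKM. The log2 ratios of the 6 lay between -0.24 and 0.36, all smaller than that of TT4. In the list called flavonol branch 5 of 10 were expressed, with a median of 0.12, and FLS1 alone passed. Not all genes of that list serve flavonols alone, since CHIL and TT7 were among them. CHIL, a chalcone isomerase-like protein that assists chalcone synthase, had 27.5 and 36.9 FPKM, and TT7, flavonoid 3'-hydroxylase, 8.42 and 9.21 FPKM. UGT78D1, a rhamnosyltransferase of flavonols, was abundant at 70.1 and 72.3 FPKM, and the methyltransferase gene OMT1 had 10.1 and 9.81 FPKM.

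Of 7 genes of the anthocyanin branch, 4 were expressed and 0 passed (median -0.45). The highest was TT19, a glutathione S-transferase needed to bring anthocyanins and proanthocyanidin precursors to the vacuole, at 15.7 and 19.4 FPKM. UGT79B1 and 5MAT, which decorate anthocyanins, were listed at 0 in both libraries. So were MYB75, MYB90, MYB113 and MYB114, the MYB activators of anthocyanin genes in leaves and stems. These 6 genes are named after their values were seen. The rest of the branch did have transcript, with SCPL10 at 3.91 and 2.96 FPKM, 3AT2 at 1.97 and 0.810 and 3AT1 at 1.36 and 0.576 FPKM. UGT75C1 was at 0.327 and 0.611 FPKM. A listed 0 can be a failed estimate, so no contrast with the proanthocyanidin genes is drawn.

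Of 8 other transparent testa and related genes of the seed coat, 7 were expressed and 0 passed (median -0.11). TT16, a MADS-box factor of the endothelium, had 35.5 and 33.0 FPKM, and TTG1, the WD40 partner of TT2 and TT8, had 21.7 and 19.0 FPKM. TTG2, a WRKY factor, had 5.44 and 4.89 FPKM. The sterol glucosyltransferase genes TT15 and UGT80A2 had 4.65 and 5.53 FPKM, and 7.10 and 6.59 FPKM. TT10, a laccase that oxidizes proanthocyanidins late in the seed coat and is named here after its value was seen, was nearly absent at 0.116 and 0.0568 FPKM.

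Of the 25 regulators, 17 were expressed, and LBD37 and LBD39 were the 2 that passed (median -0.10). EGL3, a bHLH related to TT8, had 8.99 and 9.29 FPKM. MYB5, which acts with TT2 in the seed coat, had 7.39 and 8.10 FPKM, but AT3G13530 on the other strand shares 1337 nt of exon with it, at 7.64 and 8.67 FPKM, and the pair cannot be told apart. MYBL2, a repressor of TT8 and TT3, had 14.8 and 10.4 FPKM (log2 -0.48). The repressors MYB4 and MYB32 had 15.6 and 16.8 FPKM, and 6.06 and 6.49 FPKM. KAN4, an inner integument factor, had 18.1 and 13.7 FPKM, and STK, an ovule identity factor known to repress BAN, 106 and 123 FPKM. MYB12, MYB11 and MYB111 are named after their values were seen. MYB12 had 1.03 and 1.75 FPKM. MYB11 had 0.838 and 1.0003 FPKM and MYB111 0.555 and 0.806 FPKM. All 3 activators of the early genes and of FLS1 were low, and none differed past 2-fold. Each was at a higher level in the myb98 library, MYB12 by 1.71-fold (counting interval 1.28 to 2.30). MYB111 was 1.45-fold higher (0.968 to 2.22) and MYB11 1.19-fold higher (0.810 to 1.74). MYB111 did not reach 1 FPKM, and at such levels the pseudocount makes the 2-fold rule hard to pass.

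**Figure D4:**
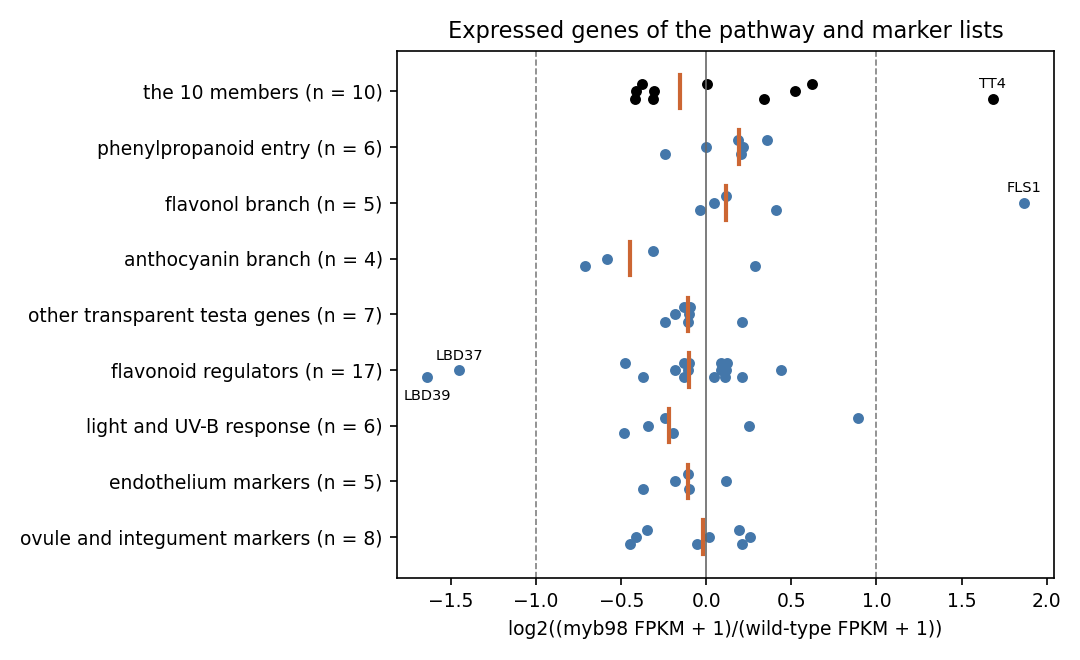
Log2 ratio of myb98 to wild-type FPKM, each with 1 added, of each expressed gene (points, spread vertically for sight alone) of the 10 members, the 5 pathway lists, the light and UV-B list and the endothelium and ovule markers, with each list's median (orange bars). Dashed lines mark the 2-fold rule at -1 and 1, and of the genes drawn TT4, FLS1, LBD37 and LBD39 lie past them.

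The ovule label and the absence of fertilization were checked against markers. All 5 genes listed as endothelium markers, apart from the members, were expressed, with a median of -0.11. That median lay within the interquartile range, -0.24 to 0.30, of the 8732 genes that reached 5 FPKM in each library. The 5 markers summed to 87.2 FPKM in the wild-type and 78.0 FPKM in the myb98 library. Not all of them mark the endothelium alone, since KAN4, an inner integument factor, was among them. The lower levels of TT3, LDOX, TT12, AHA10 and TT8 stood beside a sum that was lower too. In it, KAN4 went from 18.1 to 13.7 FPKM, TTG1 from 21.7 to 19.0, TT16 from 35.5 to 33.0 and TT1 from 4.54 to 4.14 FPKM. MYB5, which cannot be told apart from AT3G13530, went from 7.39 to 8.10 FPKM. Among the members, BAN was level at 39.8 and 39.9 FPKM. The part of endothelium content in the members' levels was not tested. In whole ovules, fewer endothelium cells and less RNA per cell cannot be told apart. The 8 ovule and integument markers were all expressed (median -0.02, sums of 287 and 293 FPKM). Of these, 4 had log2 ratios above 0 and 4 below. Among the lower were SHP1 (-0.45), BEL1 (-0.41) and SHP2 (-0.35), named after their values were seen. Of 5 markers of endosperm after fertilization, 1 reached 1 FPKM, AGL62 at 0.900 and 1.32 FPKM, PHE1 was listed at 0 in both libraries, and the sums were 1.10 and 1.64 FPKM. The 5 pollen markers summed to 1.41 and 1.50 FPKM, and of 6 carpel markers 3 were expressed (median 0.20, sums of 54.0 and 41.5 FPKM). Nearly all of both carpel sums was ALC, named after its values were seen, at 51.0 and 36.9 FPKM (log2 -0.45). Of 5 markers of the seed coat after fertilization, which other tissues also express, 4 were expressed and 0 passed (median 0.06, sums of 24.7 and 25.5 FPKM).

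Depth, estimated for the whole series, was about 48700000 fragments in the wild-type and 43200000 in the myb98 library. These totals hold only if FPKM was divided by each library's own total, and the scaling is not given. MYB98 (AT4G18770) stood at 1.35 FPKM in the wild-type and 0.474 FPKM in the myb98 library, the direction its label gives, and its exons share 481 nt with those of AT4G18780 on the other strand. Clock genes and photosynthesis genes differed between the libraries as well, and TT4 is a gene known to respond to light. Of 10 clock genes, 3 were higher and 4 lower in the myb98 library past 2-fold, among them LHY at 23.0 and 0.977 FPKM. Of 5 genes listed as leaf markers, 4 were expressed and 2 were lower past 2-fold, beside 2.74% of all expressed genes. Their sum went from 581 to 255 FPKM. It came from photosynthesis genes, which other green tissues also express. These were RBCS1A (427 and 216 FPKM), CAB3 (79.3 and 19.0), LHCB2.1 (44.5 and 4.07) and RCA (29.4 and 15.8). GL1, the leaf hair factor, was at 0.0269 FPKM and a listed 0. Of 8 genes of the light and UV-B response, 6 were expressed and 0 passed (median -0.22). The light-induced genes ELIP1 and ELIP2 had 14.3 and 27.3 FPKM, and 6.16 and 7.50 FPKM. The UV-B receptor gene UVR8 had 17.2 and 14.4 FPKM, COP1, a repressor of light responses, 6.87 and 5.21 FPKM, and HY5, named after its value was seen, 2.12 and 1.73 FPKM. The part of these differences in the level of TT4 was not tested.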

How the data were processed

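RNA of mature ovules was measured in 1 library per genotype. The authors deposited 1 table with a column of FPKM per library, which held 35548 identifiers, 1991 of them blank. Per the submitters' processing notes, the tools were TopHat2 2.0.14 and Cuffdiff 2.2.1 and the genome was TAIR10. No source used here states the annotation version, the strandedness or a scaling between libraries. Since Cuffdiff estimates how fragments divide among transcripts, a listed 0 can be a failed estimate. FPKM are relative within a library.

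From the table, log2 ratios were computed with a pseudocount of 1, which understates changes of low genes. Folds are plain ratios. A gene was expressed at 1 FPKM or more in either library. Positions, transcript lengths and sequences are those of RefSeq's TAIR10.1, which held 32802 of the 33557 genes with values. Depth was estimated from the commonest low value of FPKM multiplied by transcript length in kilobases, over genes with 1 transcript of at least 1500 nt. For 1 fragment this was 0.0205 in the wild-type and 0.0231 in the myb98 library. Counting intervals are exact binomial (Clopper-Pearson, 95%) on the rounded estimates of fragments. The rules of size and the length correction were tested on simulated data. Python 3.11.15, pandas 2.3.3, numpy 2.4.6, scipy 1.17.1 and matplotlib 3.10.9 were used.

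The members and lists were chosen with earlier results of these data known. Named genes were the 10 members, MYB98, and every gene of the pathway and light lists with at least 5 FPKM in either library or past the 2-fold rule. Every other gene named, such as LBD38, MYB11, MYB111, LHY, AGL62, PHE1, GL1, 3AT1 and 3AT2, was chosen after its values were seen. The alternatives were pseudocounts of 0.1 and 5, no filter and a filter of 5 FPKM, scaling by the median or the upper quartile, and setting each gene against the 400 genes nearest in transcript length.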

Additional observations from a re-analysis of the deposited data

How the results depend on the processing

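Across the 7 alternatives, the count of the 10 genes past the 2-fold rule stayed at 1 and past the 4-fold rule at 0. The filters could not change these counts, since they brought in no member and left out only TT2, which did not pass. The log2 ratio of TT4 ran from 1.21 with a pseudocount of 5 to 1.85 with 0.1. Each of the 10 genes except BAN kept its sign in every alternative that gave a value, and BAN ran from -0.07 to 0.04. Only the scalings and the length setting could have turned a sign, since pseudocounts and filters cannot. With a filter of 5 FPKM TT2 dropped out, and the median of the remaining members was -0.31 in place of -0.15. The median of the other pathway genes moved by less than 0.151 on the log2 scale, the median half-width of the members' counting intervals. Their count past the 2-fold rule, an outcome added after seeing the data, went from 3 to 5 with a pseudocount of 0.1, where 3AT1 (-1.11) and 3AT2 (-1.18), acyltransferase genes of the anthocyanin branch, passed as well, and to 1 with a pseudocount of 5, where FLS1 (1.03) alone remained. The scalings moved all ratios by 0.03 and 0.04 at most. Ratios ran with transcript length, with a median of 0.32 over 1796 expressed genes of 600 to 1000 nt and -0.09 over 4146 of 2000 to 3000 nt. Against genes of like length, TT4 was at 1.63, TT5 at 0.38, TT6 at 0.59, TT3 at -0.41, LDOX at -0.35, BAN at -0.07, TT12 at -0.31, AHA10 at -0.26, TT2 at 0.17 (0.34 before) and TT8 at -0.40. No paired analysis was possible because each genotype had 1 library. Depth limits TT2 most, at about 126 and 155 fragments, and the spread between ovule collections is unknown for every gene.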
